A study of Mus musculus with 8 samples.

Results

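The semaphorins with their plexin and neuropilin receptors, and the Eph receptors with their ephrin ligands, were examined in snRNA-seq counts of the mouse optic nerve (ON). The 50 genes were taken by symbol from a list fixed by name. They are 50 of the 33696 genes counted, namely 7 secreted semaphorins, 13 membrane-bound semaphorins, 9 plexins, 2 neuropilins, 6 EphA receptors, 5 EphB receptors, 5 ephrin-A ligands and 3 ephrin-B ligands. The series holds 4 control libraries of *Piezo2* f/f mice without cre (replicates 1 to 4). The other 4 libraries, replicates 10 to 13, carry the label *Olig2-cre;Piezo2* f/f and are called cKO there. All were taken at P120. All mice carry the floxed *Piezo2* alleles, and *Olig2-cre* is a driver active in cells of the OL lineage. The paper describes it as a knock-in of cre into *Olig2* and the cKO mice as heterozygous for *Olig2*. Cre and this heterozygosity go with the label, so their effects cannot be told apart from those of a *Piezo2* deletion. Each library pools 6 ONs from 3 female mice, so a library and not a nucleus is the replicate.

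Semaphorins act mostly as repulsive or attractive cues for growing axons and migrating cells. Secreted class 3 semaphorins bind neuropilins, which signal through plexins, whereas most membrane-bound semaphorins bind plexins directly. Eph receptors are receptor tyrosine kinases, and ephrins are membrane-anchored ligands that can also signal back into the cell that carries them. In white matter these families are known for guiding migrating OPCs, for contacts between glia and axons, and for vascular patterning.

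The libraries held 39628926 to 56541132 UMIs (unique molecular identifiers, each a captured RNA molecule), and 3545 to 6218 nuclei per library were kept, with a median of 2372 to 3302 UMIs per nucleus. Clusters were made without the 50 genes and named from fixed markers, and for each of the 11 named types every marker of its list was highest in that type. Since the same markers named the clusters, this is no independent check of the names. Of the nuclei kept, 8014 control and 11246 cKO-labelled nuclei were OLs, 315 and 413 were OPCs, 38 and 65 were committed OPCs (*Gpr17*-positive intermediates between OPC and OL), 3825 and 3805 were astrocytes and 1611 and 1812 were fibroblasts. Microglia (445 and 597), border-associated macrophages (BAMs, 152 and 145), endothelial cells (119 and 175), neurons (150 and 94) and T cells (88 and 85) were rarer. The study names brain tissue next to the nerve, carried along at dissection, as the likely source of its neurons, so values in neurons need not describe the ON. Mural cells had sums of 10 or more nuclei in 1 library per group and entered no test, and 2070 control and 2058 cKO-labelled nuclei stayed unnamed. One unnamed cluster of 58 nuclei led by pituitary hormone genes came entirely from control libraries, 89.7% of it from replicate 3. Pairs of libraries shared 2 to 11 barcodes of kept nuclei. For each cell type the UMIs of a library's nuclei were added up, and levels are given in CPM, the count of a gene divided by the total of that sum and scaled to the same total for all sums. Such levels were compared for 1 gene between cell types or groups and not between genes, since they are not scaled to gene length.

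The targeted gene did not follow the genotype labels. In OLs *Piezo2* was at 504, 388, 405 and 487 CPM in the control libraries and 533, 536, 572 and 521 CPM in replicates 10 to 13, a log2 difference of 0.26 ± 0.11 (SE; edgeR, adjusted p = 0.541). *Olig2*, the locus named in the driver, was at 23.8, 31.5, 41.1 and 28.4 CPM in control OLs and at 44.6, 51.8, 48.9 and 43.7 CPM in OLs of the other group, a log2 difference of 0.58 ± 0.15 (adjusted p = 0.251). The libraries were made with a 3′ kit, and the methods name a probe on the *Piezo2* exons that the knockout removes. Whether the counted reads fall on those exons was not tested, so the count need not show the deletion. The group is therefore called the libraries labelled cKO.

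Along the OL lineage several guidance genes differed between OPCs, committed OPCs and OLs. *Sema3d* (a secreted semaphorin), *Sema5b* (a membrane-bound semaphorin with thrombospondin repeats) and *Epha5* were high in OPCs and low in OLs. *Sema5a*, *Sema4d* and *Plxnb3* were highest in committed OPCs. *Ephb1* and *Efnb3* were high in OLs and low in OPCs. *Sema6d* and *Sema7a* were lowest in committed OPCs. The start regions of 4 of these genes are shown because they were high at different stages. They are the RefSeq windows of GRCm38.p6, from 250 bases before to 50 bases after the annotated start, in the direction of the gene, with capitals on ACAAAG and ACAATG and on their reverse complements CTTTGT and CATTGT, the core letters bound by SOX-type factors, which do not overlap one another here.
*Sema3d*, chr5:12382916-12383215, plus strand: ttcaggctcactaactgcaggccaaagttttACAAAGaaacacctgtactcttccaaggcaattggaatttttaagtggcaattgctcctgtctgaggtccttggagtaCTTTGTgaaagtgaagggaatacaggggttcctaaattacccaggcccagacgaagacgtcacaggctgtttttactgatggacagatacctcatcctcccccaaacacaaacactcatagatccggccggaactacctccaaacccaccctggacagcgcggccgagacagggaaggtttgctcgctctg
*Sema5b*, chr16:35541112-35541411, plus strand: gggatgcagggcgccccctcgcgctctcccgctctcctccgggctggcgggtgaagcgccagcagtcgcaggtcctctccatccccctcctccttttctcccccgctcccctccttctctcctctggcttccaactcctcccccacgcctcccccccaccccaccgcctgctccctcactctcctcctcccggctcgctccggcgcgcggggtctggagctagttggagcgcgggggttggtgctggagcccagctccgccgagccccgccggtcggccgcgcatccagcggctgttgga
*Sema5a*, chr15:32244563-32244862, plus strand: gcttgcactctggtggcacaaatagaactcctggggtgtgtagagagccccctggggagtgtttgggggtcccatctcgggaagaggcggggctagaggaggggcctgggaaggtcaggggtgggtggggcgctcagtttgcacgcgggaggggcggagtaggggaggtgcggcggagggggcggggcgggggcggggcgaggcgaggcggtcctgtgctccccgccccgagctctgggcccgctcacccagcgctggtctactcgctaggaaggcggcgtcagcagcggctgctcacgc
*Ephb1*, chr9:102354644-102354943, minus strand: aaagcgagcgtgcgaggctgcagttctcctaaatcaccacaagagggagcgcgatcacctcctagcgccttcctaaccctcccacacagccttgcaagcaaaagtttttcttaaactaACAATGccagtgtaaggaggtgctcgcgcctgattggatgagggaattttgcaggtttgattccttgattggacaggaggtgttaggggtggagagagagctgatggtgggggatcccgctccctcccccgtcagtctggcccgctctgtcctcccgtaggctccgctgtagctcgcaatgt

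*Sema3d* held ACAAAG starting at -219 and CTTTGT starting at -141 from the annotated start, *Ephb1* held ACAATG at -132, and the windows of *Sema5a* and *Sema5b* held none of the 4 words. At least 1 of them stood in 28.6% of the 32851 RefSeq windows, and in 14 of the 58 windows of the 44 guidance genes with an entry (24.1%). These matches are a description of letters. In GRCm39, the build of the counts, the annotated genes lie at chr5:12433124-12638929 (*Sema3d*), chr16:35360820-35485102 (*Sema5b*), chr15:32244919-32696487 (*Sema5a*) and chr9:101799327-102231898 (*Ephb1*).

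*Sema3d* was at 781, 789, 756 and 639 CPM in OPCs of the control libraries and at 546, 533, 683 and 591 CPM in those labelled cKO. In OLs it was at 20.7, 19.7, 23.5 and 22.7 CPM and 16.6, 20.1, 17.9 and 23.7 CPM. Every OPC sum was above every OL sum, and the level in empty droplets, 48.6 to 72.2 CPM over the 8 libraries, was itself above the OL values. The log2 difference of OLs minus OPCs was -5.01 ± 0.12 (SE; n = 8 libraries; edgeR quasi-likelihood test, adjusted p = 1.25e-28). Committed OPCs were at 753 and 556 CPM in the 2 control libraries with enough nuclei and 341 to 794 CPM in the other group, with a difference from OPCs of -0.21 ± 0.14 that was not called (adjusted p = 0.287).

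*Sema5b* was at 342, 237, 267 and 322 CPM in control OPCs, at 161 and 222 CPM in committed OPCs and at 1.96, 0.685, 0.648 and 2.48 CPM in OLs. The libraries labelled cKO gave 242 to 306 CPM, 65.6 to 215 CPM and 1.24 to 2.47 CPM for the same 3 stages. The stages did not overlap between OPCs and OLs, and OL values lay within or below the 1.86 to 4.06 CPM of empty droplets. OLs differed from OPCs by -7.48 ± 0.17 on the log2 scale (adjusted p = 4.01e-29), and committed OPCs differed from OPCs by -0.71 ± 0.21 (adjusted p = 0.00715).

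*Epha5* was already low in committed OPCs. It was at 246, 224, 281 and 246 CPM in control OPCs, at 0 and 20.2 CPM in committed OPCs and at 3.89 to 5.63 CPM in OLs, against 4.59 to 12.9 CPM in empty droplets. Its differences were -3.94 ± 0.34 for committed OPCs minus OPCs (adjusted p = 1.09e-11) and -5.93 ± 0.14 for OLs minus OPCs (adjusted p = 9.65e-29). *Plxna4*, a receptor that pairs with neuropilins, was at 56.1, 57.0, 49.2 and 33.1 CPM in control OPCs and 1.54 to 2.59 CPM in OLs, and *Plxnc1*, the receptor of *Sema7a*, was at 61.5, 74.5, 35.2 and 61.6 CPM and 2.02 to 3.73 CPM. Committed OPCs of the 6 libraries held 1 UMI of *Plxna4* and 2 UMIs of *Plxnc1* in all, so both were at or under 3 counts there. OLs minus OPCs gave -4.18 ± 0.27 for *Plxna4* and -3.92 ± 0.23 for *Plxnc1* (adjusted p = 3.33e-16 and 5.59e-17). The OL values of both lay below those of empty droplets, 4.85 to 11.3 CPM for *Plxna4* and 6.09 to 15.1 CPM for *Plxnc1*. *Ephb2* was at 88.2, 48.2, 45.7 and 90.0 CPM in control OPCs and 6.68 to 10.9 CPM in OLs, a difference of -3.46 ± 0.20 (adjusted p = 3.95e-17). These OL values lay within the 5.64 to 12.7 CPM of empty droplets.

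The committed OPC stage carried its own peak of *Sema5a*, a cue with both repulsive and attractive roles. It was at 208, 140.3, 225 and 223 CPM in control OPCs, 825 and 1304 CPM in committed OPCs and 143, 140.0, 146 and 168 CPM in OLs. In the libraries labelled cKO the committed OPCs gave 895, 929, 674 and 866 CPM, so all 6 committed OPC sums were above all 16 OPC and OL sums. The difference was 2.26 ± 0.13 from OPCs (adjusted p = 4.44e-16) and -2.75 ± 0.12 from committed OPCs to OLs (adjusted p = 3.85e-20). *Sema4d*, a ligand of B-type plexins, was at 56.8 to 88.2 CPM in control OPCs, 520.0 and 586 CPM in committed OPCs and 238, 265, 259 and 319 CPM in OLs, and the 4 other committed OPC sums ranged from 215 to 494 CPM. *Plxnb3*, a B-type plexin, was at 56.3 to 85.5 CPM, 359 and 485 CPM and 174, 161, 144 and 165 CPM in the same order, with 247 to 447 CPM in committed OPCs of the other group. Both rose from OPCs to committed OPCs, by 2.35 ± 0.18 and 2.29 ± 0.16, and fell again to OLs, with differences of -0.62 ± 0.15 and -1.27 ± 0.14 (adjusted p = 0.00103 and 7.80e-10). They remained above the OPC level in OLs, by 1.73 ± 0.14 and 1.02 ± 0.12 (adjusted p = 1.56e-13 and 2.39e-09).

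*Ephb1*, a receptor for ephrin-B ligands, rose furthest. It was at 26.7, 35.1, 38.7 and 52.1 CPM in control OPCs, 538 and 606 CPM in committed OPCs and 723, 556, 675 and 748 CPM in OLs, and OLs labelled cKO gave 529.9, 547, 607 and 592 CPM. The rise was also seen in committed OPCs, which differed from OPCs by 3.57 ± 0.19, whereas OLs differed from OPCs by 4.04 ± 0.15 (adjusted p = 3.73e-17 and 2.75e-23). The committed OPC cluster of 103 nuclei held OL markers at a median of 0.352 of their highest cluster level. The limit of 0.33, above which other clusters stayed unnamed, was not applied to it. How much of the rise in committed OPCs came from OL content was not tested. *Efnb3*, an ephrin-B ligand, rose mainly at the later step, with 32.1, 17.5, 52.8 and 42.6 CPM in control OPCs, 71.7 and 40.4 CPM in committed OPCs and 288, 299, 318 and 367 CPM in OLs. Its step from committed OPCs to OLs was 2.10 ± 0.23 and its step from OPCs to committed OPCs 0.96 ± 0.31 (adjusted p = 9.54e-10 and 0.0179). Empty droplets held 292 to 422 CPM of *Efnb3*, a range that overlapped that of OLs. *Epha4* was at 2.67, 4.38, 3.52 and 18.9 CPM in control OPCs and 49.3, 46.4, 57.8 and 48.6 CPM in OLs (2.16 ± 0.30, adjusted p = 7.06e-08), and its committed OPC values ranged widely, from 0 to 162 CPM on 29 UMIs in all. *Sema6a* differed by only 0.56 ± 0.12 between OLs and OPCs (adjusted p = 1.64e-04), close to the limit of 0.5, and was no longer called without any 1 of control replicates 1, 2 and 4 or cKO-labelled replicate 10.

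*Sema6d*, a class 6 semaphorin that binds A-type plexins, dipped in committed OPCs. It was at 505, 478, 623 and 526 CPM in control OPCs, 502 and 243 CPM in committed OPCs and 574, 532, 515 and 516 CPM in OLs, and at 512 to 673 CPM, 182, 162, 181 and 262 CPM and 451 to 485 CPM in the other group. Of the 6 committed OPC sums, 5 lay below every OPC and OL sum, whereas that of control replicate 1 lay among the OPC and OL sums. The differences were -1.22 ± 0.17 from OPCs to committed OPCs and 1.05 ± 0.17 from there to OLs (adjusted p = 3.15e-07 and 2.28e-06). *Sema7a* was called in the same directions (-1.71 ± 0.65 and 1.95 ± 0.59, adjusted p = 0.0435 and 0.00797), but its committed OPC values of 0 and 10.1 CPM in control and 33.1, 8.52, 0 and 0 CPM in the other group rest on 1 and 3 UMIs.

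**Figure D1:**
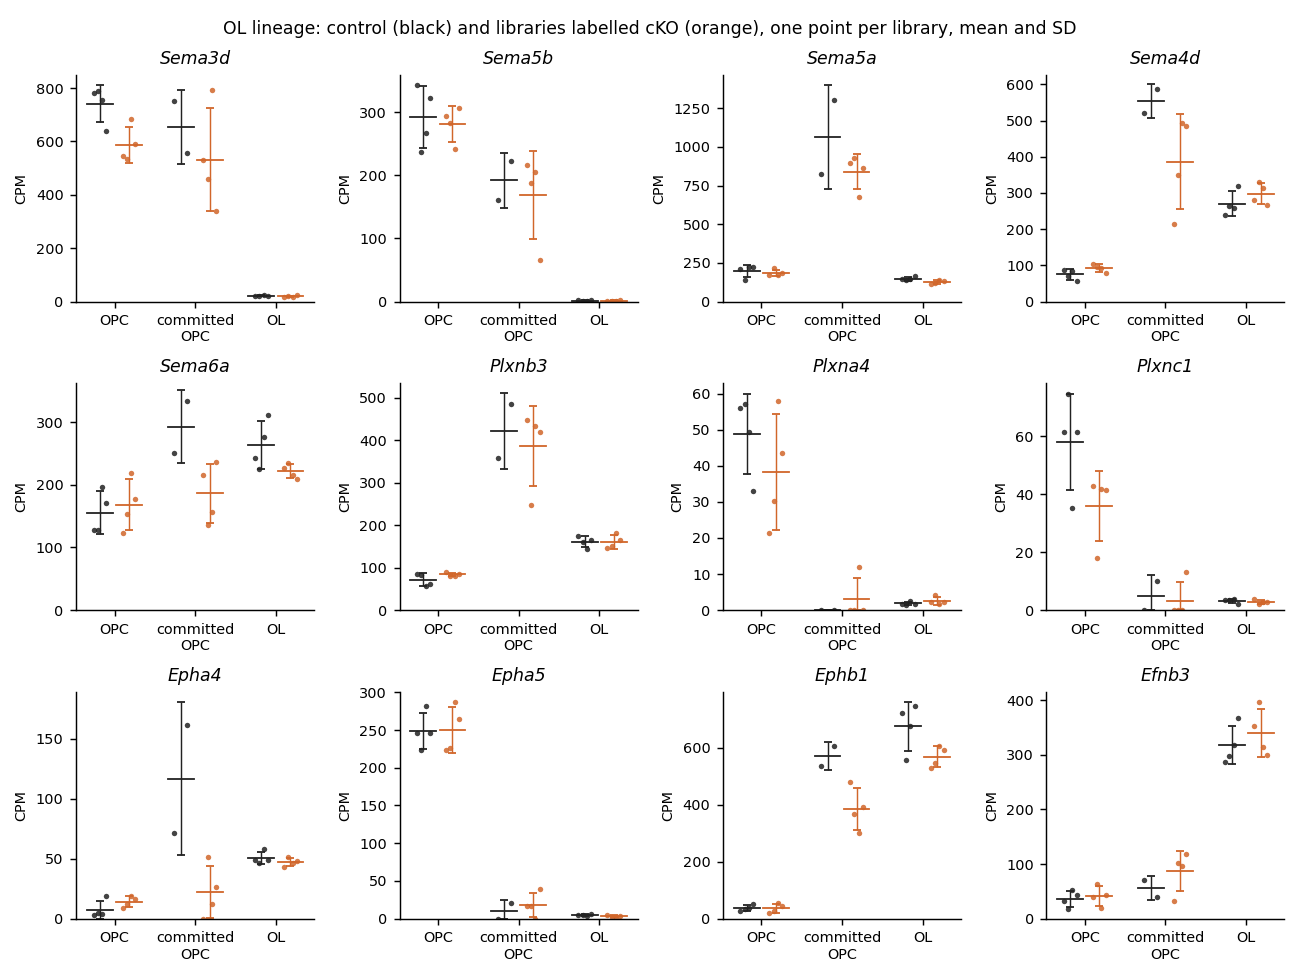
Level in CPM of 12 guidance genes in OPCs, committed OPCs and OLs, with 1 point per library (control in black, libraries labelled cKO in orange), and the mean with its SD as a bar that ends at 0 at the lowest. *Sema3d*, *Sema5b* and *Epha5* are high in OPCs, *Sema5a* stands out in committed OPCs, where the 2 control sums are at 825 and 1304 CPM, and *Ephb1* and *Efnb3* are high in OLs.

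Of the 50 genes, 20 passed the filter on low counts along the lineage, and the counts below describe these only. A gene could pass this filter through the stage where it was high. OLs were higher than OPCs for 6 of the 20 and lower for 10, where 25.5% of the 7344 genes tested were higher and 25.3% lower. Committed OPCs were higher than OPCs for 6 and lower for 7, against 12.9% and 16.7% of all genes. OLs were higher than committed OPCs for 3 and lower for 9, against 20% (1471 of 7344 genes) and 17.9%. The median log2 difference of OLs minus OPCs was -0.56 over the 20 genes and 0.08 over all genes tested. With DESeq2, which tested 49 of the 50 genes, OLs were higher for 7 and lower for 22, against 12.5% and 24.4% of 20193 genes, and the median over all genes was -0.26. The remaining genes called lower in OLs than in OPCs were *Plxna3* (-2.74 ± 0.28), *Sema3e* (-2.46 ± 0.23), *Plxna2* (-1.89 ± 0.18) and *Nrp2* (-0.63 ± 0.13). *Sema6d* (-0.17 ± 0.11), *Sema7a* (0.24 ± 0.21) and *Plxnb1* (-0.27 ± 0.12) were not called in that contrast, with adjusted p = 0.167, 0.317 and 0.0518. *Sema5a* (-0.49 ± 0.11) was not called there either, with an adjusted p of 2.21e-04 and a difference under the limit of 0.5.

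Genes of semaphorin and Eph signalling outside the main list were followed in 2 further lists, called effectors for short. The lists do not hold downstream genes only. That of Eph signalling includes the receptor genes *Epha1* and *Epha10*, and that of semaphorin signalling includes genes of surface proteins such as *Nrcam*. Of 27 genes of semaphorin signalling, 16 were tested along the lineage, and 3 were higher and 8 lower in OLs than in OPCs, where 25.5% of all genes were higher and 25.3% lower. *Micall1* (3.00 ± 0.15), *Dpysl2* (1.54 ± 0.12), which encodes the collapsin response mediator CRMP2, and *Cdk5* (1.29 ± 0.23) were higher. The neural adhesion gene *Nrcam* (-5.30 ± 0.15) and the CRMP genes *Dpysl3* (-4.33 ± 0.15) and *Dpysl4* (-4.23 ± 0.46) had the largest falls. Of 21 genes of Eph signalling, 16 were tested, 5 higher and 8 lower against the same shares of all genes. The kinase gene *Abl1* (1.87 ± 0.16), the phosphatase gene *Ptpn11* (1.63 ± 0.15) and the adaptor gene *Nck2* (1.28 ± 0.17) rose, while *Grip1* (-6.91 ± 0.16), a scaffold that binds ephrin-B tails, and the exchange factor genes *Kalrn* (-5.88 ± 0.18) and *Vav3* (-3.98 ± 0.24) fell. Their adjusted p ranged from 6.27e-29 (*Grip1*) to 1.08e-05 (*Cdk5*). The median over the tested effectors was -0.34 for semaphorin signalling and -0.87 for Eph signalling.

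Levels were then compared across the cell types of the control libraries. Committed OPCs, with 2 control libraries, were not among the 9 types compared. The filter left 30 of the 50 genes. For each of them the type with the highest mean was compared with the next one by edgeR (n = 4 control libraries, p adjusted over all genes of the pair, the pairs taken from the order of the levels). A gene could pass the filter through the sums of its highest type alone, and its pair was then picked from the same levels. The adjusted p of a pair is therefore a description of the gap and no independent test of the order. Types at 0 counts make differences from the mean of the others depend on the prior count, so the sizes below are those between the highest and the next type. These sizes include edgeR's TMM scaling of each sum, which CPM does not, so a tested difference can be smaller or larger than the ratio of the CPM values beside it.

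**Figure D2:**
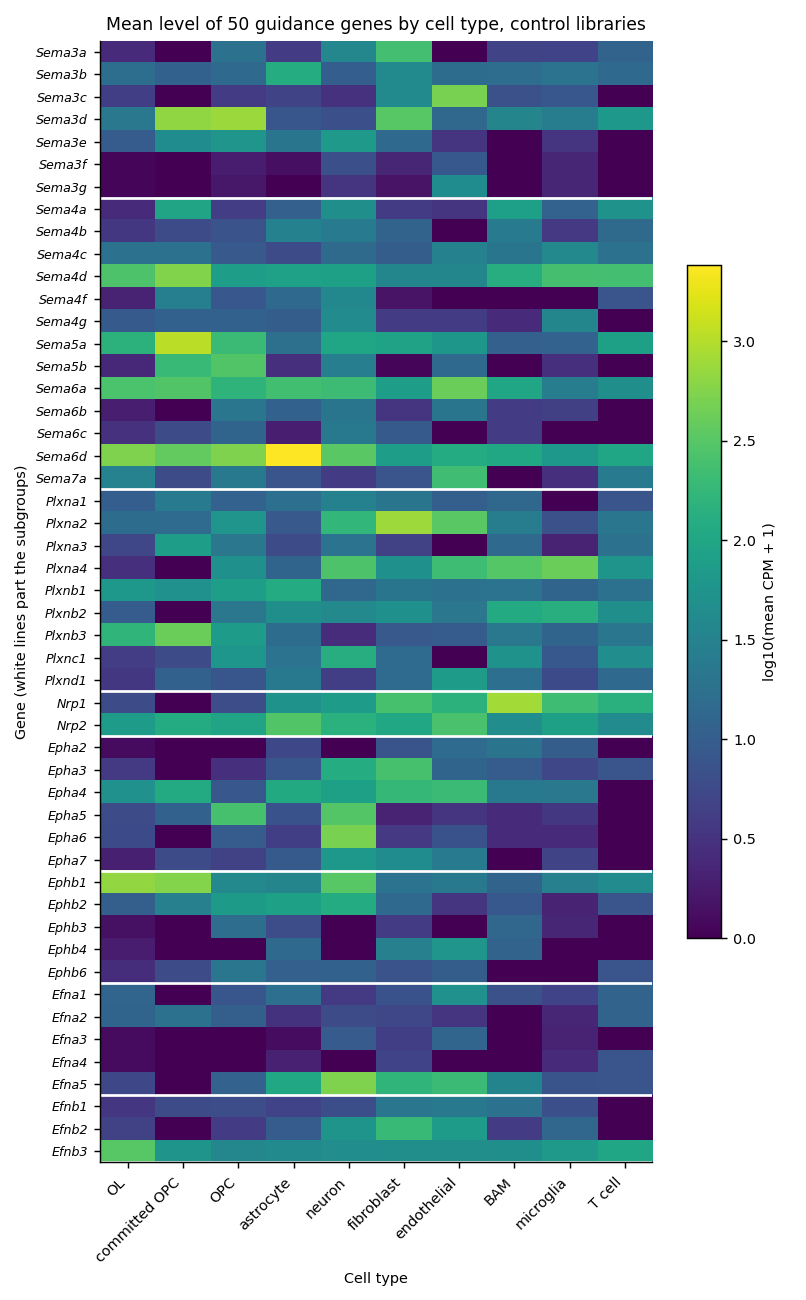
Mean level of the 50 genes in 10 cell types of the control libraries, as log10(mean CPM + 1), with genes in rows by subgroup and cell types in columns. Committed OPCs rest on 2 libraries and the other types on 4. The brightest cell is *Sema6d* in astrocytes, at a mean of 2411 ± 149 CPM (SD).

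Among the secreted semaphorins 5 genes were tested, and 4 of them had a highest type called above the next one. The share of all genes whose highest type was called above the next was not counted. Whether 4 of 5 is many therefore cannot be said. *Sema3c* was at 471, 595, 428 and 539 CPM in endothelial cells, and fibroblasts came next with 29.1 to 49.6 CPM, a log2 difference of 3.56 ± 0.25 (adjusted p = 2.43e-16). *Sema3d* in OPCs was above the 306, 299.6, 319 and 364 CPM of fibroblasts by 1.49 ± 0.19 (adjusted p = 2.12e-09), and both were above every sum of the other 7 types compared. *Sema3a*, the founding repulsive class 3 member, was at 225, 234, 282 and 186 CPM in fibroblasts and at 17.4 to 62.7 CPM in neurons, with 2.50 ± 0.28 between them (adjusted p = 1.11e-10). Among the types compared, which leave out committed OPCs, these 3 genes thus had their highest levels in endothelial cells, OPCs and fibroblasts, with no overlap to the next type. For *Sema3d* the difference of committed OPCs from OPCs, -0.21 ± 0.14, was not called.

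*Sema3b* was highest in astrocytes, at 70.4, 122, 144 and 152 CPM, and 1.77 ± 0.22 above the 33.8 to 44.2 CPM of fibroblasts (adjusted p = 7.40e-10), although empty droplets held 77.4 to 139.8 CPM. *Sema3e*, a ligand of *Plxnd1*, was at 36.3 to 95.9 CPM in neurons and 28.4 to 70.3 CPM in OPCs, which overlapped (-0.02 ± 0.37, adjusted p = 0.999). *Sema3f* and *Sema3g* did not pass the filter. *Sema3g*, a vascular semaphorin, had 15 UMIs in endothelial sums, at 44.4, 85.0, 8.92 and 34.8 CPM, and at most 4 UMIs in any other type. *Sema3f* had at most 8 UMIs in a type.

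Among the membrane-bound semaphorins, astrocytes carried *Sema6d* at 2596, 2239, 2366 and 2444 CPM. OLs followed with 574, 532, 515 and 516 CPM and OPCs with 505, 478, 623 and 526 CPM, and the step from OLs to astrocytes was 2.02 ± 0.21 (adjusted p = 4.46e-12). Astrocytes did not overlap with any other type for this gene. *Sema6a* was shared more widely. It was at 364, 437, 348 and 539 CPM in endothelial cells and 243, 225, 276 and 311 CPM in OLs. The CPM ranges did not overlap, but the TMM-scaled difference of 0.22 ± 0.25 was not called (adjusted p = 0.516). The gene was at 199 to 251 CPM in astrocytes and 188 to 224 CPM in neurons. One BAM sum, replicate 2, reached 333 CPM of *Sema6a*, while the other 3 were at 14.3 to 19.1 CPM.

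*Sema7a*, which is anchored by a lipid and binds integrins and *Plxnc1*, was at 186, 279, 285 and 139 CPM in endothelial cells and 27.2 to 33.8 CPM in OLs, a step of 2.48 ± 0.26 (adjusted p = 3.45e-11). *Sema4d* was at 238, 265, 259 and 319 CPM in OLs and 292, 275, 199 and 212 CPM in microglia. The groups overlapped, and the difference of 0.47 ± 0.19 stayed under the limit of 0.5 (adjusted p = 0.0357). *Sema5b* in OPCs was 3.37 ± 0.36 above neurons (adjusted p = 1.85e-10), whereas *Sema5a* in OPCs and OLs differed by 0.40 ± 0.22 (adjusted p = 0.146). *Sema4a*, known for its role in immune cells, was at 76.5, 95.1, 73.0 and 71.7 CPM in BAMs, at 38.0 to 61.0 CPM in neurons and at 53.8 and 131 CPM in committed OPCs, with 0 to 133 CPM in T cells on 6 UMIs in all.

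The other 6 membrane-bound semaphorins did not pass the filter. *Sema4b* was at 25.7 to 32.2 CPM in astrocytes and *Sema4f* at 11.2 to 17.1 CPM in astrocytes and 14.0 to 53.8 CPM in neurons. *Sema4c* was at 26.2 to 53.2 CPM in microglia and 8.88 to 86.9 CPM in endothelial cells, and *Sema4g* at 17.9 to 56.0 CPM in neurons and 24.9 to 52.4 CPM in microglia. *Sema6b* was at 13.2 to 28.4 CPM in OPCs, and *Sema6c* at 8.96 to 34.9 CPM in neurons on 28 UMIs. These 6 genes were low in every type, and no order among their types was read from them.

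Plexins and neuropilins are the receptors. *Plxna2* was at 863, 648, 769 and 779.7 CPM in fibroblasts and 453, 328, 312 and 209 CPM in endothelial cells, a step of 1.29 ± 0.24 (adjusted p = 3.13e-05), and at 11.7 to 16.7 CPM in OLs. *Plxna4* was at 421, 355, 450.2 and 461 CPM in microglia, 421, 428, 170.5 and 201 CPM in BAMs and 168, 401, 216 and 305 CPM in neurons. Microglia and BAMs overlapped (0.61 ± 0.28, adjusted p = 0.206), and OLs held 46 UMIs in all, 1.54 to 2.59 CPM. *Plxnb2* was likewise highest in microglia (87.3, 133, 126 and 193 CPM) and BAMs (76.5, 119, 97.4 and 172 CPM), without a difference between them beyond the spread (0.31 ± 0.35, adjusted p = 0.735).

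*Plxnb3* was at 174, 161, 144 and 165 CPM in OLs and 1.18 ± 0.26 above OPCs (adjusted p = 1.29e-04). *Plxnb1*, a receptor of *Sema4d*, was at 109, 132, 121 and 124 CPM in astrocytes and 0.55 ± 0.21 above the 70.2 to 82.9 CPM of OPCs (adjusted p = 0.0354). *Plxnc1* was at 107, 131, 106 and 161 CPM in neurons, 0.99 ± 0.31 above OPCs (adjusted p = 0.0116), with 23.8 to 79.1 CPM in BAMs. Among the 9 types compared, which leave out committed OPCs, the highest means of *Plxnb3*, *Plxnb1* and *Plxnb2* were thus in OLs, astrocytes and microglia, and committed OPCs held more *Plxnb3* than OLs. *Plxna1*, *Plxna3* and *Plxnd1* did not pass the filter, with *Plxnd1*, the vascular plexin, at 71.0, 97.1, 125 and 0 CPM in endothelial cells and 18.9 to 25.0 CPM in astrocytes, *Plxna1* at 17.4 to 35.9 CPM in neurons and 18.8 to 20.4 CPM in fibroblasts, and *Plxna3* at 9.47 to 31.7 CPM in OPCs and 71.7 and 80.9 CPM in committed OPCs.

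The neuropilins had different highest types. *Nrp1* was at 966, 737, 682 and 918 CPM in BAMs, at 242, 259.9, 224 and 274 CPM in fibroblasts and at 163, 222, 199 and 274 CPM in microglia. BAMs were above fibroblasts by 1.62 ± 0.18 (adjusted p = 6.52e-11), and OLs held only 3.35 to 6.32 CPM. *Nrp2* was at 241, 269, 308 and 326 CPM in astrocytes and 275, 182, 374 and 191 CPM in endothelial cells, which overlapped (0.35 ± 0.19, adjusted p = 0.144), and at 65.8 to 81.0 CPM in OLs.

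**Figure D3:**
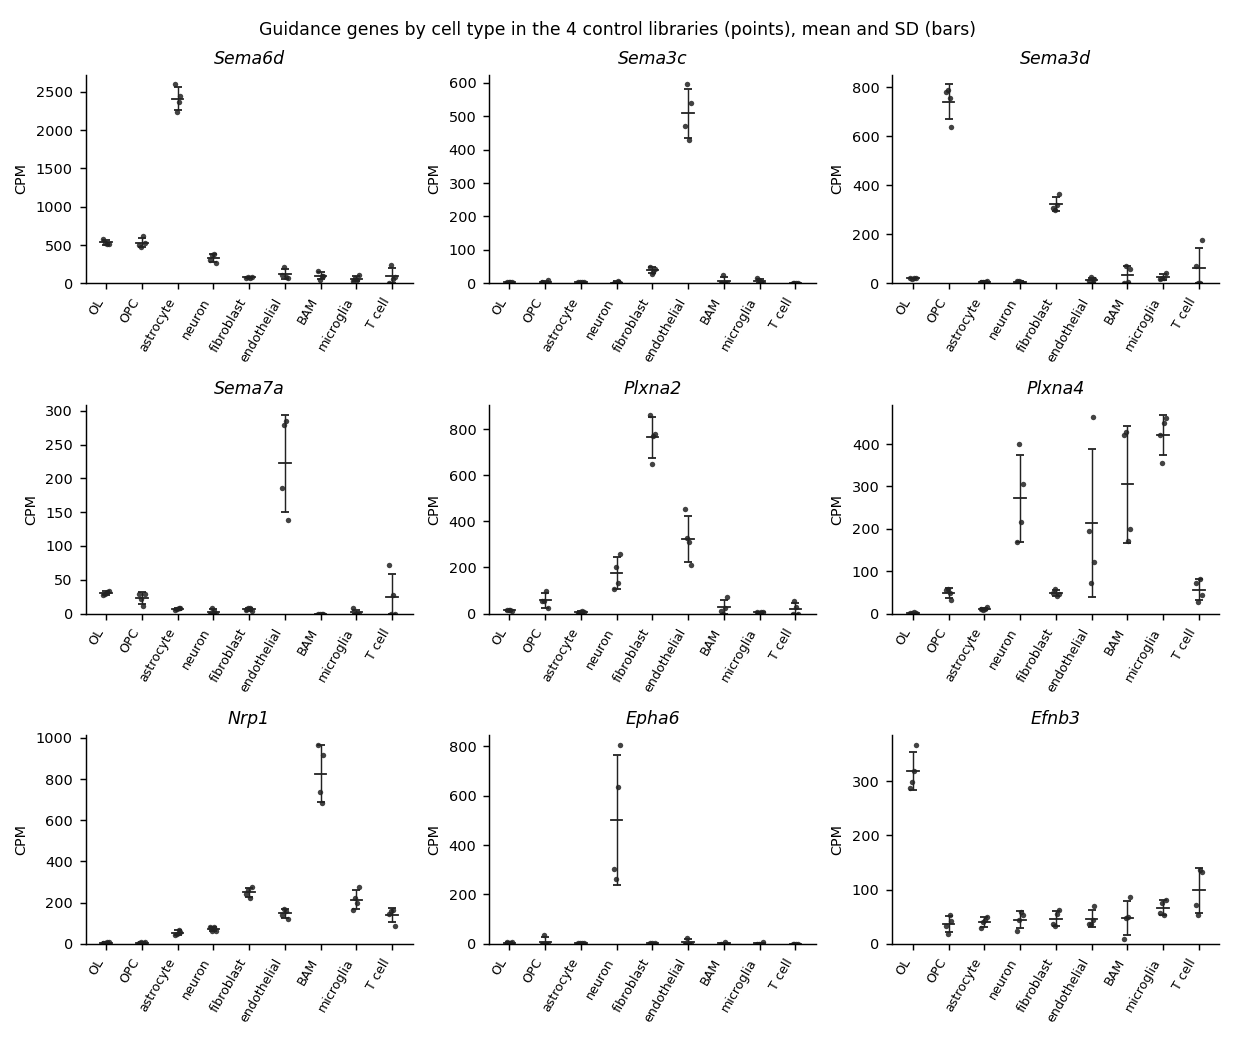
CPM of 9 guidance genes in 9 cell types, with 1 point for each of the 4 control libraries and the mean with its SD as a bar that ends at 0 at the lowest. The values of *Sema6d* in astrocytes (2239 to 2596 CPM), *Sema3c* in endothelial cells (428 to 595 CPM) and *Nrp1* in BAMs (682 to 966 CPM) lie above all other types, whereas *Plxna4* is spread over neurons, endothelial cells, BAMs and microglia.

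Of the 5 EphA receptors tested, *Epha5*, *Epha6* and *Epha7* had their highest mean in neurons. *Epha6* was at 303, 262, 636 and 806 CPM in neurons, and OPCs came next only through 1 library of 35.1 CPM with the other 3 at 0, a step of 6.01 ± 0.48 (adjusted p = 1.84e-14). With OPC sums at 0, the size of this step also depends on the prior count. *Epha5* was at 266, 157, 525 and 233 CPM in neurons and 246, 224, 281 and 246 CPM in OPCs, which overlapped (0.34 ± 0.24, adjusted p = 0.31). *Epha7* was at 56.0, 69.8, 41.3 and 80.7 CPM in neurons and 51.1, 27.1, 52.2 and 42.0 CPM in fibroblasts, again without a called difference (0.55 ± 0.33, adjusted p = 0.162). The neuron sums rest on 16 to 84 nuclei per control library, which may come from outside the ON.

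*Epha3* was highest in fibroblasts, at 276, 236, 304 and 194 CPM, and 0.85 ± 0.23 above the 60.7 to 201 CPM of neurons, with overlap of 1 library (adjusted p = 0.00205). *Epha4* reached 169, 206, 187 and 243 CPM in endothelial cells and 167, 186, 177 and 184 CPM in fibroblasts, which did not differ beyond their spread (0.03 ± 0.22, adjusted p = 0.943), and 104 to 126 CPM in astrocytes. *Epha2* stayed under the filter, with at most 55 UMIs in a type.

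Among the EphB receptors, OLs carried *Ephb1* at 723, 556, 675 and 748 CPM, 1.23 ± 0.22 above the 215, 331, 296 and 439 CPM of neurons (adjusted p = 5.21e-06). *Ephb2* was at 140.0, 105, 94.2 and 143 CPM in neurons, 98.9, 65.4, 82.1 and 83.3 CPM in astrocytes and 88.2, 48.2, 45.7 and 90.0 CPM in OPCs, and neurons and astrocytes were not called apart (0.54 ± 0.24, adjusted p = 0.0581). *Ephb4*, the venous receptor of *Efnb2*, did not pass the filter and was at 62.2, 60.7, 71.3 and 34.8 CPM in endothelial cells and 26.3, 28.1, 32.6 and 28.2 CPM in fibroblasts. *Ephb3* (8.77 to 23.7 CPM) and *Ephb6* (7.04 to 42.6 CPM) had their highest mean in OPCs and were also under the filter.

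The 3 ephrins that passed the filter were highest in 3 different types. *Efnb3* in OLs was 2.46 ± 0.39 above T cells, the next type, at 71.4, 53.5, 136 and 133 CPM on 11 UMIs (adjusted p = 7.96e-07). Empty droplets held 292 to 422 CPM of *Efnb3*, and their RNA was estimated at 27.4% to 45.9% of the control T cell sums. The T cell value therefore need not be expression in T cells, and its source was not tested. *Efnb2*, the arterial ephrin, was at 222, 176, 139.7 and 218 CPM in fibroblasts and 53.3, 85.0, 44.6 and 104 CPM in endothelial cells, a step of 1.61 ± 0.35 (adjusted p = 3.61e-04). *Efna5* was at 607, 732, 535 and 251 CPM in neurons, 137, 189, 190.1 and 127 CPM in fibroblasts and 114, 81.1, 103 and 108 CPM in astrocytes. Its endothelial values of 79.9, 12.1, 713 and 0 CPM depended on replicate 3 alone, and without that library *Efna5* was no longer called higher in endothelial cells (log2 difference from the mean of the others 0.53, adjusted p = 0.706). *Efna1* was at 35.5, 85.0, 44.6 and 34.8 CPM in endothelial cells, *Efnb1* at 17.4 to 36.4 CPM in endothelial cells and 13.8 to 30.8 CPM in fibroblasts, and *Efna2* at 7.68 to 12.8 CPM in OLs, all under the filter. *Efna3* and *Efna4* had at most 20 and 21 UMIs in a type.

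Further genes were called higher in a type without being at their highest there. In neurons these were *Plxna2* (107 to 259.9 CPM), *Nrp2* (113 to 191 CPM), *Efnb2* (23.1 to 98.6 CPM), *Sema5b* (9.33 to 38.0 CPM) and *Sema5a*, which varied from 8.96 to 166 CPM. In endothelial cells they were *Nrp1* (122 to 170.0 CPM), *Plxna4* (72.8 to 464 CPM) and *Epha7* (0 to 48.6 CPM). *Plxnb2* (26.2 to 63.7 CPM) and *Sema3e* (14.4 to 29.6 CPM) were called in astrocytes, *Sema3a* (4.74 to 35.1 CPM) and *Sema7a* (10.6 to 29.4 CPM) in OPCs, *Plxnb1* (54.2 to 73.2 CPM) in OLs and *Sema5a* (68.0 to 107 CPM) in fibroblasts. The calls of *Sema3a* in OPCs, *Plxnb2* in astrocytes, *Epha7* in endothelial cells and *Nrp2* in neurons did not last when 1 or another control library was left out.

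Read by cell type, the neurons had the most genes called higher than the mean of the other types, with 20 of 30, where 28.7% of all 9283 genes tested were called. The counts were 13 in OPCs (22.7% of all genes), 12 in fibroblasts (22.6%), 11 in endothelial cells (17.2%), 10 in OLs (25.9%) and 10 in astrocytes (28.3%). They were 5 in BAMs (18.5%), 4 in microglia (20.1%) and 0 in T cells (6.55%), whose sums hold 14001 to 37364 UMIs. In T cells 7 of the 30 genes had an unadjusted p under 0.05, against 25.8% of all genes, and 4 were called lower, against 6.93%. DESeq2 called 1 of 50 higher there, against 5.20%. The shares in BAMs and microglia (16.7% and 13.3%) were not above those of all genes. With DESeq2, which tested all 50 genes, the split of higher and lower calls moved from 10 and 7 to 12 and 28 in OLs, from 10 and 5 to 19 and 18 in astrocytes and from 11 and 5 to 19 and 3 in endothelial cells. The lower calls over all genes were 19.0% with edgeR and 28.3% with DESeq2 in OLs, 13.6% and 13.8% in astrocytes and 10.6% and 3.53% in endothelial cells, and the higher calls with DESeq2 were 14.4%, 22.1% and 10.5% in the same order. The median over all genes in OLs moved from 0.06 with edgeR to -0.44 with DESeq2. In fibroblasts the split moved from 12 and 6 to 16 and 12 (DESeq2 over all genes 14.9% and 12.1%). In microglia it moved from 4 and 7 to 6 and 16 (10.0% and 10.8%) and in OPCs from 13 and 2 to 19 and 5 (15.9% and 4.32%). The moves were from 20 and 2 to 29 and 2 in neurons (22.1% and 8.22%) and from 5 and 6 to 6 and 6 in BAMs (9.06% and 5.06%). Empty-droplet RNA was estimated at 27.4% to 45.9% of the control T cell sums and 14.2% to 38.6% of the endothelial sums, against 9.8% to 19.6% in OLs, OPCs, astrocytes and fibroblasts. With it subtracted no named gene lost its call. The steps between the highest and the next type were not refitted with it subtracted.

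Effector genes of both lists were called higher in each of the 9 types. Of 27 semaphorin effectors 24 were tested, with 11 called higher in neurons (28.7% of all genes), 9 in OPCs (22.7%), 9 in fibroblasts (22.6%), 8 in astrocytes (28.3%), 6 in OLs (25.9%), 6 in endothelial cells (17.2%), 4 in BAMs (18.5%), 4 in T cells (6.55%) and 3 in microglia (20.1%). Those leading in each were *Dpysl5*, *Crmp1* and *L1cam* in neurons, *Nrcam* and *L1cam* in OPCs, *Mical2* and *Met* in fibroblasts, *Kdr* and *Itga1* in endothelial cells, *Fes* and *Cd72* in BAMs and microglia, *Dpysl5* and *Micall1* in OLs, *Met* and *Dpysl5* in astrocytes and *Cd72*, *Itga1* and *Fyn* in T cells. Of the 21 genes of the Eph list, which holds the receptor genes *Epha1* and *Epha10*, 17 were tested. Called higher were 8 in neurons, 7 in OPCs, 6 each in OLs and BAMs and 5 each in fibroblasts and microglia. In astrocytes and endothelial cells 4 each were higher and in T cells 1, against the same shares of all genes. *Kalrn* and *Grip1* led in neurons and OPCs, and *Ptpn11*, *Nck2* and *Abl1* in OLs.

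Within OLs, several guidance genes varied between subclusters that were made without them. Subclusters 1, 2 and 6 had high *Grik1* (768, 961 and 802 CPM) and low *Il33* (73.8, 34.0 and 142 CPM), and subclusters 0, 4 and 5 had lower *Grik1* (396, 208 and 355 CPM) and higher *Il33* (363, 706 and 494 CPM). *Sema5a* was at 268, 216, 257 and 295 CPM in subcluster 2 and 33.6, 23.9, 37.9 and 59.5 CPM in subcluster 4, with 192 to 234 CPM in subcluster 1 and 52.0 to 107 CPM in subcluster 0. *Sema6a* ran the other way, with 106, 124, 115 and 158 CPM in subcluster 2 and 375, 338, 427 and 439 CPM in subcluster 4. *Ephb2* was at 36.3, 33.7, 47.3 and 54.2 CPM in subcluster 4 and at 18.3 CPM or less in every library of the other 10 subclusters. *Epha4* was at 16.8 to 31.0 CPM in subcluster 2 and 61.2 to 103 CPM in subcluster 4. *Efnb3* (means of 223 to 368 CPM) and *Sema4d* (means of 235 to 330 CPM) varied less over the 11 subclusters. These values describe the clusters and were not tested.

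Fibroblasts held larger contrasts. Subclusters 1 and 3 had high *Adamtsl3* (3131 and 2017 CPM), subclusters 2, 5, 6 and 7 had the highest *Trpm3* (17800 to 37500 CPM), subcluster 0 had *Lama1* (1477 CPM) and *Cemip* (754 CPM), and subcluster 4 had *Igfbp3* (674 CPM). *Nrp1* was at 726, 872, 544 and 967 CPM in subcluster 1 and 464, 424, 409 and 494 CPM in subcluster 3, but at 0, 15.7, 22.6 and 13.2 CPM in subcluster 2. *Efnb2* was at 549, 571, 481 and 583 CPM in subcluster 4 and at 0 to 15.8 CPM and 0 to 28.2 CPM in subclusters 1 and 3, the reverse of *Nrp1*. *Efna5* followed *Nrp1* in subclusters 1 and 3, with 196 to 353 CPM and 192 to 393 CPM, against 0 to 12.4 CPM in subcluster 0.

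The class 3 semaphorins also varied among fibroblast subclusters. *Sema3a* was at 626, 841, 588 and 554 CPM in subcluster 2 and 19.3, 24.8, 12.2 and 19.5 CPM in subcluster 0. *Sema3d* was at 675, 549, 703 and 844 CPM in subcluster 4 and 775, 722, 931 and 552 CPM in subcluster 6, and at 148 to 267 CPM in subcluster 2. *Nrp2* was highest in subcluster 6, at 746, 586, 404 and 449.7 CPM, and *Sema6a* in subcluster 0, at 338, 217, 306 and 215 CPM. *Plxna2* was present throughout, with means from 400.0 CPM in subcluster 1 to 1234 CPM in subcluster 4 over subclusters 0 to 7. The fibroblast mean of each of these genes is therefore an average over subclusters that differ severalfold. Fibroblast subclusters 8 and 9 are not described, since they held 675 and 800 CPM of the OL gene *Mobp*, against 117 to 251 CPM in the others.

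**Figure D4:**
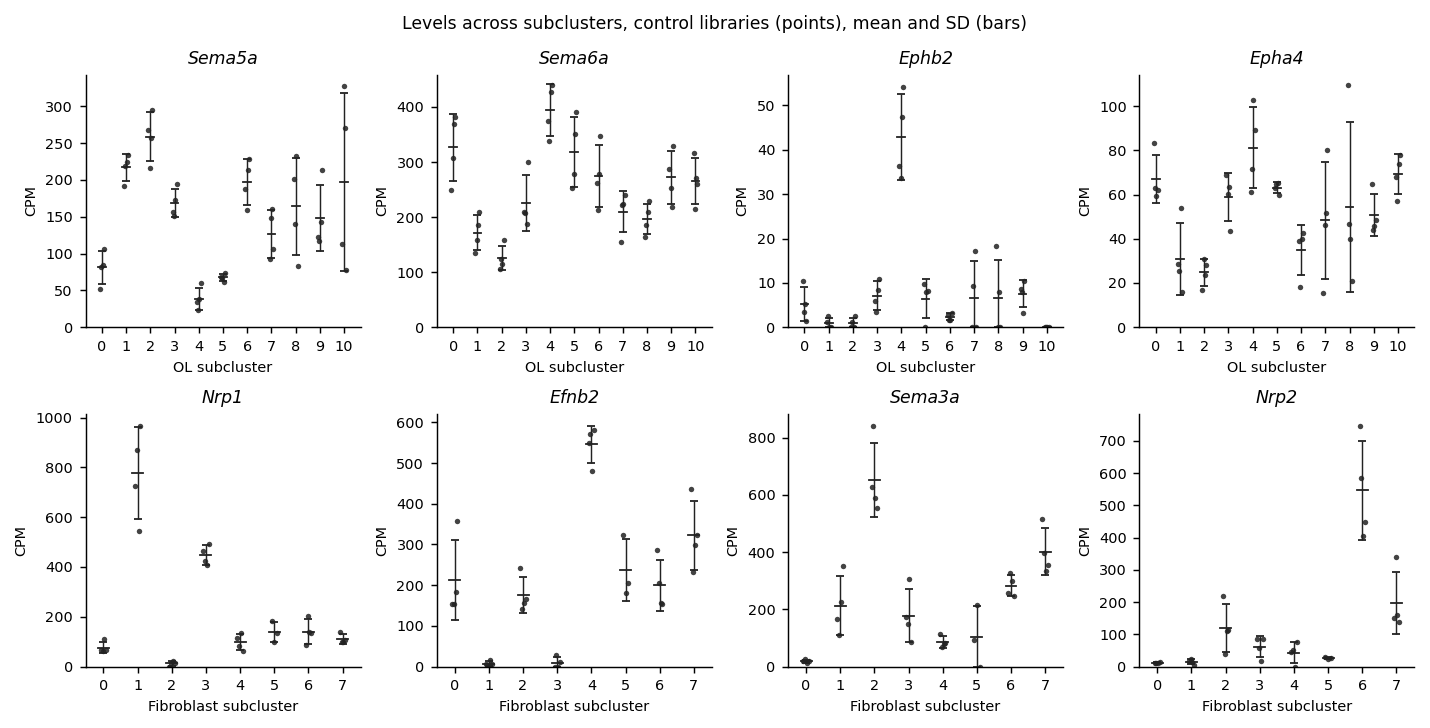
CPM of 4 genes over the 11 OL subclusters (upper row) and of 4 genes over fibroblast subclusters 0 to 7 (lower row), with 1 point per control library and the mean with its SD as a bar that ends at 0 at the lowest. *Sema5a* is low and *Sema6a* and *Ephb2* are high in OL subcluster 4, and *Nrp1* is high in fibroblast subclusters 1 and 3, where *Efnb2* is near 0.

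Between the genotype labels no guidance gene was called in any cell type. In OLs 40 of the 50 genes were tested, and none was called, where 0.0829% of 14482 genes were. In OPCs 17 were tested against 0.276% of all genes called, in microglia 7 against 0.0762%, and in astrocytes 39, fibroblasts 32, neurons 15, committed OPCs 9, endothelial cells 8 and BAMs 4 against 0%. No guidance gene passed the filter in T cells (0.207% of all genes called). At an unadjusted p under 0.05 the counts were 8 of 40 in OLs (8.80% of all genes tested there), 3 of 17 in OPCs (7.33%), 2 of 39 in astrocytes (7.49%), 4 of 32 in fibroblasts (4.26%), 4 of 15 in neurons (6.00%), 1 of 9 in committed OPCs (5.66%), 1 of 8 in endothelial cells (3.77%), 0 of 4 in BAMs (6.82%) and 0 of 7 in microglia (5.89%). DESeq2 also called none of the guidance genes. The log2 differences ran from -0.70 to 1.09 in OLs, from -0.68 to 0.64 in OPCs and from -0.61 to 0.33 in astrocytes, with medians of 0.04, 0.02 and -0.03. In committed OPCs all 9 genes tested were lower in the libraries labelled cKO, from -0.86 for *Sema6d* (adjusted p = 0.794) to -0.16 for *Plxnb3* (adjusted p = 0.966), with a median of -0.50 against 0.01 over all genes. None of the 9 was called, and the comparison rests on 2 control libraries against 4. The ranges were -0.56 to 0.48 in fibroblasts, -1.34 to 1.34 in neurons, -1.06 to 0.16 in endothelial cells, -0.16 to 0.32 in microglia and -0.44 to 0.14 in BAMs.

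In OLs the smallest p belonged to *Epha6*, at 6.71, 4.11, 3.24 and 5.18 CPM in control and 14.2, 13.1, 9.41 and 5.43 CPM in OLs labelled cKO. The groups overlapped, and the difference was 1.09 ± 0.30 (adjusted p = 0.341). Empty droplets held 2.40 to 9.54 CPM of *Epha6*. The control values and those of 9.41 and 5.43 CPM lay within that range, and those of 14.2 and 13.1 CPM above it. *Sema3a* was at 1.68, 1.89, 1.78 and 0.9 CPM and 2.39, 2.86, 2.65 and 3.95 CPM (0.87 ± 0.29, adjusted p = 0.431), without overlap but below its 10.9 to 22.4 CPM in empty droplets. *Sema6a* was at 243, 225, 276 and 311 CPM and 227, 235, 216 and 209 CPM, with overlap (-0.27 ± 0.11, adjusted p = 0.526). For the genes with high OL levels the differences were -0.27 ± 0.11 for *Ephb1*, -0.20 ± 0.09 for *Sema6d*, 0.08 ± 0.11 for *Efnb3*, 0.13 ± 0.11 for *Sema4d* and -0.02 ± 0.11 for *Plxnb3* (SE; adjusted p from 0.549 for *Ephb1* to 0.974 for *Plxnb3*).

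In OPCs *Sema3d* was at 781, 789, 756 and 639 CPM in control and 546, 533, 683 and 591 CPM in the other group, where 1 library lay above the lowest control (-0.35 ± 0.13, adjusted p = 0.448). *Ephb2* was at 88.2, 48.2, 45.7 and 90.0 CPM and 117, 105, 113 and 101 CPM, without overlap (0.64 ± 0.23, adjusted p = 0.448). *Plxnc1* was at 61.5, 74.5, 35.2 and 61.6 CPM and 42.9, 18.1, 41.9 and 41.4 CPM (-0.68 ± 0.31, adjusted p = 0.615). None of the 3 passed the test. The genes shown here between genotypes in OLs, OPCs, astrocytes and neurons were mostly picked by small p, which favours groups without overlap. The share of all genes without overlap was not counted.

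In astrocytes *Sema4f* was at 17.1, 12.3, 11.2 and 13.1 CPM in control and 9.51, 9.25, 10.1 and 7.06 CPM in the libraries labelled cKO (-0.61 ± 0.20, adjusted p = 0.569), without overlap. *Nrp1* was at 40.6, 48.4, 69.0 and 59.1 CPM and 34.7, 40.4, 41.6 and 48.7 CPM (-0.37 ± 0.16, adjusted p = 0.644). *Sema6d* was at 2596, 2239, 2366 and 2444 CPM and 1937, 1961, 2380 and 2132 CPM (-0.20 ± 0.11, adjusted p = 0.683), and the groups overlapped for both.

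The neurons had the smallest adjusted p of all types. *Epha7* was at 56.0, 69.8, 41.3 and 80.7 CPM in control and 121, 143, 158 and 133 CPM in the other group, and *Ephb1* at 215, 331, 296 and 439 CPM and 77.6, 135, 135 and 138 CPM. Neither pair of groups overlapped, and the differences were 1.34 ± 0.28 and -1.34 ± 0.28 (adjusted p = 0.242 for both). Without the filter on low counts *Ephb1* (-1.41, adjusted p = 0.00282) and *Sema5a* (-1.63, adjusted p = 0.0228) were called in neurons and *Efna5* (-1.70, adjusted p = 0.00291) in endothelial cells, where control replicate 3 held 713 CPM of *Efna5* and every other library at most 101 CPM. The neuron sums hold 11 to 84 nuclei, and whether they drew on the same neurons in both groups was not tested. Of the 2 effector lists, 0 of the 23 semaphorin and 0 of the 19 Eph genes tested in OLs were called (edgeR). The 19 include the receptor genes *Epha1* and *Epha10*. In each list 2 genes had an unadjusted p under 0.05 in OLs, against 8.80% of all genes, and no gene of the lists was called in any other type. The genotype difference in OLs minus that in astrocytes was called for none of 46 guidance genes by edgeR, against 0.0188% of 15969 genes, and for none of 49 by DESeq2, against 0.0368% of 21713 genes. With edgeR 3 of the 46 had an unadjusted p under 0.05, against 2.72% of all genes. With the library as a replicate block, since both types of a library come from the same animals, none of the 46 was called, against 0.0814% of all genes, and 2 had an unadjusted p under 0.05, against 5.93%. *Epha6* had the largest such difference, 1.49 ± 0.59 on the log2 scale (adjusted p = 1).

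**Figure D5:**
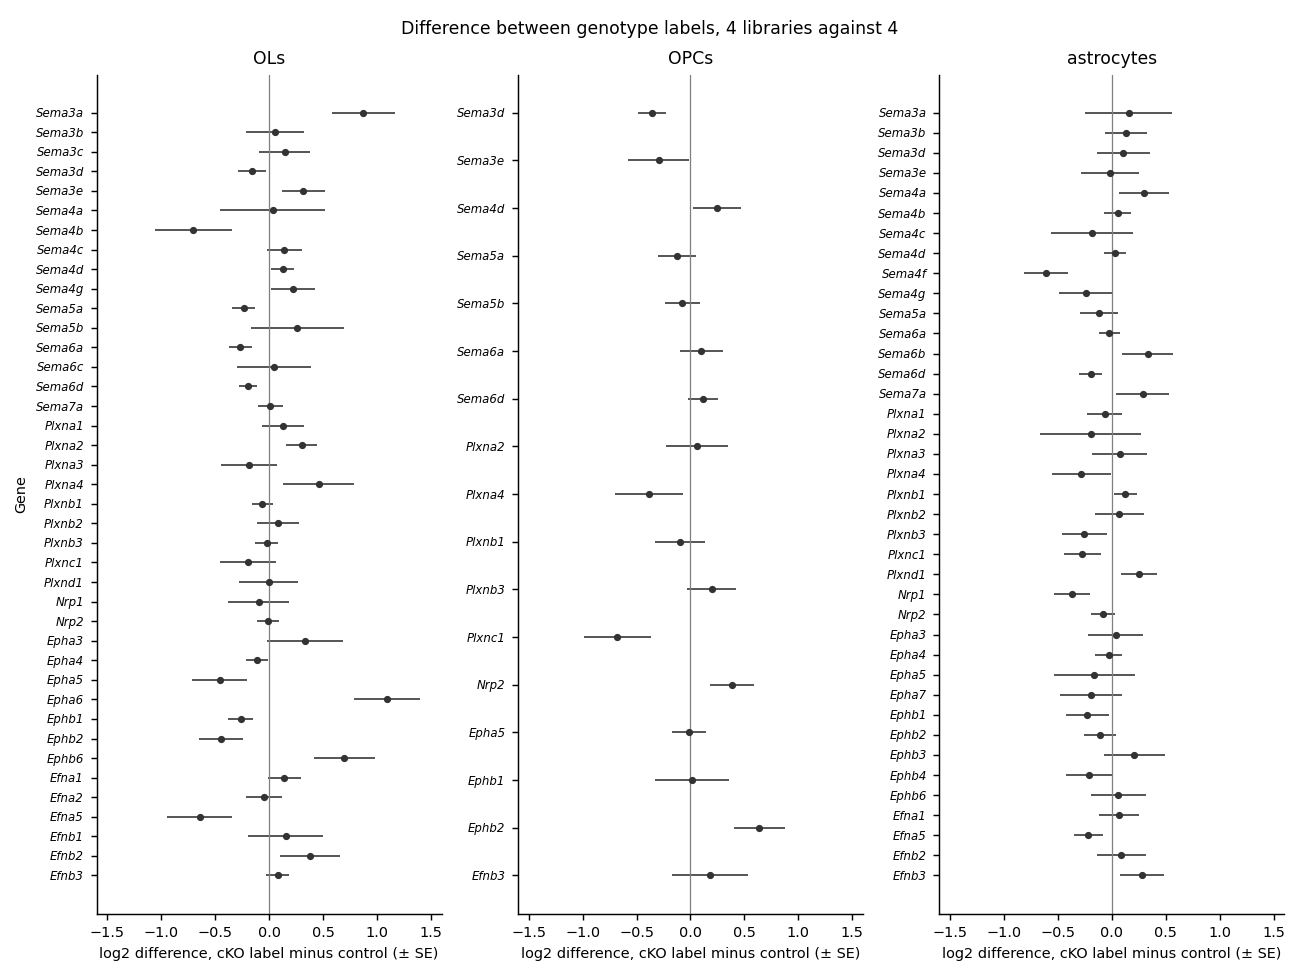
Log2 difference of the libraries labelled cKO minus control, with its SE as a bar, for the guidance genes tested in OLs (40), OPCs (17) and astrocytes (39). The differences lie on both sides of 0, and none passed the test.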

How the data were processed

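Nuclei of pooled ONs were profiled by 10x Genomics snRNA-seq, and the counts (UMIs per gene and barcode) were deposited by the authors as unfiltered matrices, made with Cell Ranger 7.0.0 per the labels on GRCm39. The methods name CellBender, but the deposited counts are whole numbers before that step. From these counts nuclei were called by an order-of-magnitude rule plus a test against empty droplets. The rule sets a UMI threshold, a high quantile of the top 8000 barcodes divided by 10. Called nuclei were filtered, freed of doublets with Scrublet and clustered (scanpy 1.11.5, Leiden), leaving out the 50 genes, the effector genes, *Piezo1*, *Piezo2* and *Olig2*. Clusters were named from fixed markers, with limits set after the clusters were seen. The limit on markers of a second type was not applied to committed OPCs.

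Sums of counts over the nuclei of 1 type in 1 library (at least 10 nuclei and 1000 counts) were tested with edgeR 4.0.16 (R 4.3.3, TMM, filterByExpr, quasi-likelihood test). This test gives no SE. The SE printed is the absolute log2 difference divided by the square root of the F statistic, an approximation that need not match the p beside it. Calls needed an adjusted p (Benjamini-Hochberg over all genes tested) under 0.05 and a log2 difference beyond 0.5. Types were compared in the 4 control libraries, stages in all 8 with the genotype label in the fit, and genotypes within a type. Genes were named by rule, up to 3 per family and type by size of the difference, up to 6 per direction along the lineage, the 3 with the smallest p between genotypes in OLs, OPCs and astrocytes, and up to 3 effectors per direction. Other values were chosen after they were seen. The 50 genes and the effector lists were chosen with earlier results of these data known. On simulated counts for OLs between genotypes (14306 genes), 97% of 2-fold and 100% of 4-fold changes were recovered, with 8 false calls. Changes were planted only in genes with a mean count of at least 50 per sum, and the spread followed the trend over genes. The simulation therefore does not show what could be recovered for genes with fewer counts or in rarer types.

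Cell types of a library come from the same animals, and the 40 correlations of their deviations ranged from 0.177 to 0.821 (median 0.406). Alternatives were DESeq2 1.42.0, no filter, the order-of-magnitude call alone, subtraction of empty-droplet counts, leaving out each library, the replicate block and the libraries labelled cKO. Leaving out T cells and contrasts of the highest and next type were added after seeing the data. The spread between libraries is that between pools of 3 mice.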

Additional observations from a re-analysis of the deposited data

Results flagged for a closer look

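In 122 groups of 4 libraries, the genes named by rule in their cell types, 3 had 1 library far from the others by Dixon's test, where chance gives about 1 in 20 groups. *Efna5* in endothelial cells of control replicate 3 was at 713 CPM and 0 to 79.9 CPM in the others. *Plxnc1* in OPCs of cKO-labelled replicate 11 was at 18.1 CPM and 41.4 to 42.9 CPM in the others. *Epha4* in OPCs of control replicate 4 was at 18.9 CPM and 2.67 to 4.38 CPM in the others, on 7 UMIs in all.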

How the results depend on the processing

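No direction reversed, and of the values for named genes 1076 kept their side of the threshold and 21 no longer passed it. These values were differences from the mean of the other types, along the lineage and between genotypes. The steps between the highest and the next type are not among them. Those steps were fitted only as in the main test and without the filter, with no replicate block. Without a filter on low counts, all 50 guidance genes were tested, and those called higher were 20 in OPCs (12.4% of 26979 genes), 20 in astrocytes (24.5%), 17 in endothelial cells (6.99%), 21 in fibroblasts (18.0%) and 7 in microglia (9.68%), 19 were lower in OLs than in OPCs (15.8% of 26300 genes), and 3 were called between genotypes, namely *Efna5* in endothelial cells (-1.70, adjusted p = 0.00291), *Ephb1* in neurons (-1.41, adjusted p = 0.00282) and *Sema5a* in neurons (-1.63, adjusted p = 0.0228). With DESeq2 the counts of 50 were 1 in T cells (5.20% of 21422 genes), 19 in astrocytes (22.1%) and 19 in endothelial cells (10.5%), and of 49 genes 22 were lower in OLs than in OPCs (24.4% of 20193 genes) and 15 lower in OLs than in committed OPCs (17.7%). The libraries labelled cKO gave 3 of 35 in T cells (4.97% of 11676 genes), and leaving out 1 library gave 0 to 1 there. More genes were tested without a filter and with DESeq2, and the cause of the shifts was not tested further. Calls no longer passed for *Sema3a* in OPCs, *Plxnb2* in astrocytes, *Epha7* and *Efna5* in endothelial cells, *Sema5a* and *Nrp2* in neurons, *Epha4* in OLs and *Sema6a* between OLs and OPCs, each under at least 1 alternative. With the replicate block 13 guidance genes were higher in fibroblasts instead of 12, and it moved no count of guidance genes called by over 1.5 times, but over all genes the calls in the genotype difference of OLs minus astrocytes went from 3 to 13 of 15969 and those at an unadjusted p under 0.05 from 434 to 947. No paired analysis was possible because the genotype groups share no replicate numbers. With only the order-of-magnitude call, the genotype comparison in T cells could not be fitted. Rare types, with few counts per library, limit what could be detected.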
